A study of Mus musculus with 2 samples.

Results

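The complement genes described here are 9 rows of a single-cell count table of 17087 genes from mouse retina, chosen by symbol: C1qa, C1qb and C1qc, C3, C4b, Cfi, Serping1, Clu and Cd59a. All 9 symbols were present. Their levels were compared across the cell classes of the retina and between a streptozotocin (STZ) library and a control library. STZ is a toxin taken up by pancreatic beta cells, whose loss leaves the animal without insulin. The STZ library came from male C57BL/6 mice injected with 55 mg/kg STZ intraperitoneally when they were 3 to 5 weeks old. Mice over 300 mg/dL glucose were counted as diabetic, and their retinas were taken 25 weeks into hyperglycaemia. The control library was prepared from untreated male C57BL/6 mice. Each library was made from 3 pooled retinas, which makes 1 library per group with no replicate, so no difference between the groups could be tested. Every interval below is a 95% counting interval of that library, which leaves out the spread between animals and captures.

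Complement is a cascade of blood and tissue proteins that tags surfaces for uptake by phagocytes and can pierce membranes. In the classical pathway the C1q complex binds its target, C4 and C3 are then cleaved and deposited, and inhibitors stop the cascade at successive steps. In the retina, microglia are known as a local source of C1q, which takes part in synapse removal during development, and Müller glia, pigment epithelium and neurons are known to make regulators that shield host cells.

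Cells were clustered without any complement gene, and clusters were named from marker genes that hold none of the 9 genes, so each class name stands for a cluster that is like that class. After filtering, 8232 STZ cells and 5098 control cells were kept. Median depth over all cells was 2062 unique molecular identifiers (UMIs, each counting 1 captured RNA molecule) in the STZ library and 3800 in the control library. Levels are given as CPM, the UMIs of a gene per 1000000 UMIs of its class in that library. Comparisons were made in the 8 classes that had 50 or more cells in each library: Müller glia (1171 STZ and 1267 control cells), endothelial (404 and 87), pericyte or smooth muscle (148 and 91), rod (1017 and 626), cone (917 and 749), rod bipolar (811 and 882), cone bipolar (986 and 650) and amacrine (223 and 54). Microglia (99 STZ and 39 control cells) and pigment epithelium (203 and 48) had fewer than 50 control cells, so their values are given apart from those counts. The astrocyte cluster held 7 cells in each library. In both libraries 12 of 12 microglia, 9 of 9 Müller glia, 9 of 9 endothelial and 7 of 8 pigment epithelium markers were detected in their class. The same markers named the clusters, so their detection is no separate check of the names. Rods also held at least 1 UMI of 9 of 9 Müller glia markers in both libraries. In the astrocyte cluster 5 of 5 astrocyte markers were detected in STZ and 3 of 5 in control.

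The genes had their highest levels in different classes. C1qa, C1qb and C1qc stood in microglia, C4b in astrocytes and Müller glia, Cfi in rod bipolar cells, Serping1 in pericytes or smooth muscle and Müller glia, Clu in pigment epithelium, astrocytes and Müller glia, and Cd59a in cones and endothelial cells. C3 was sparse in both libraries, with 25 UMIs over all STZ cells and 28 over all control cells.

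**Figure D1:**
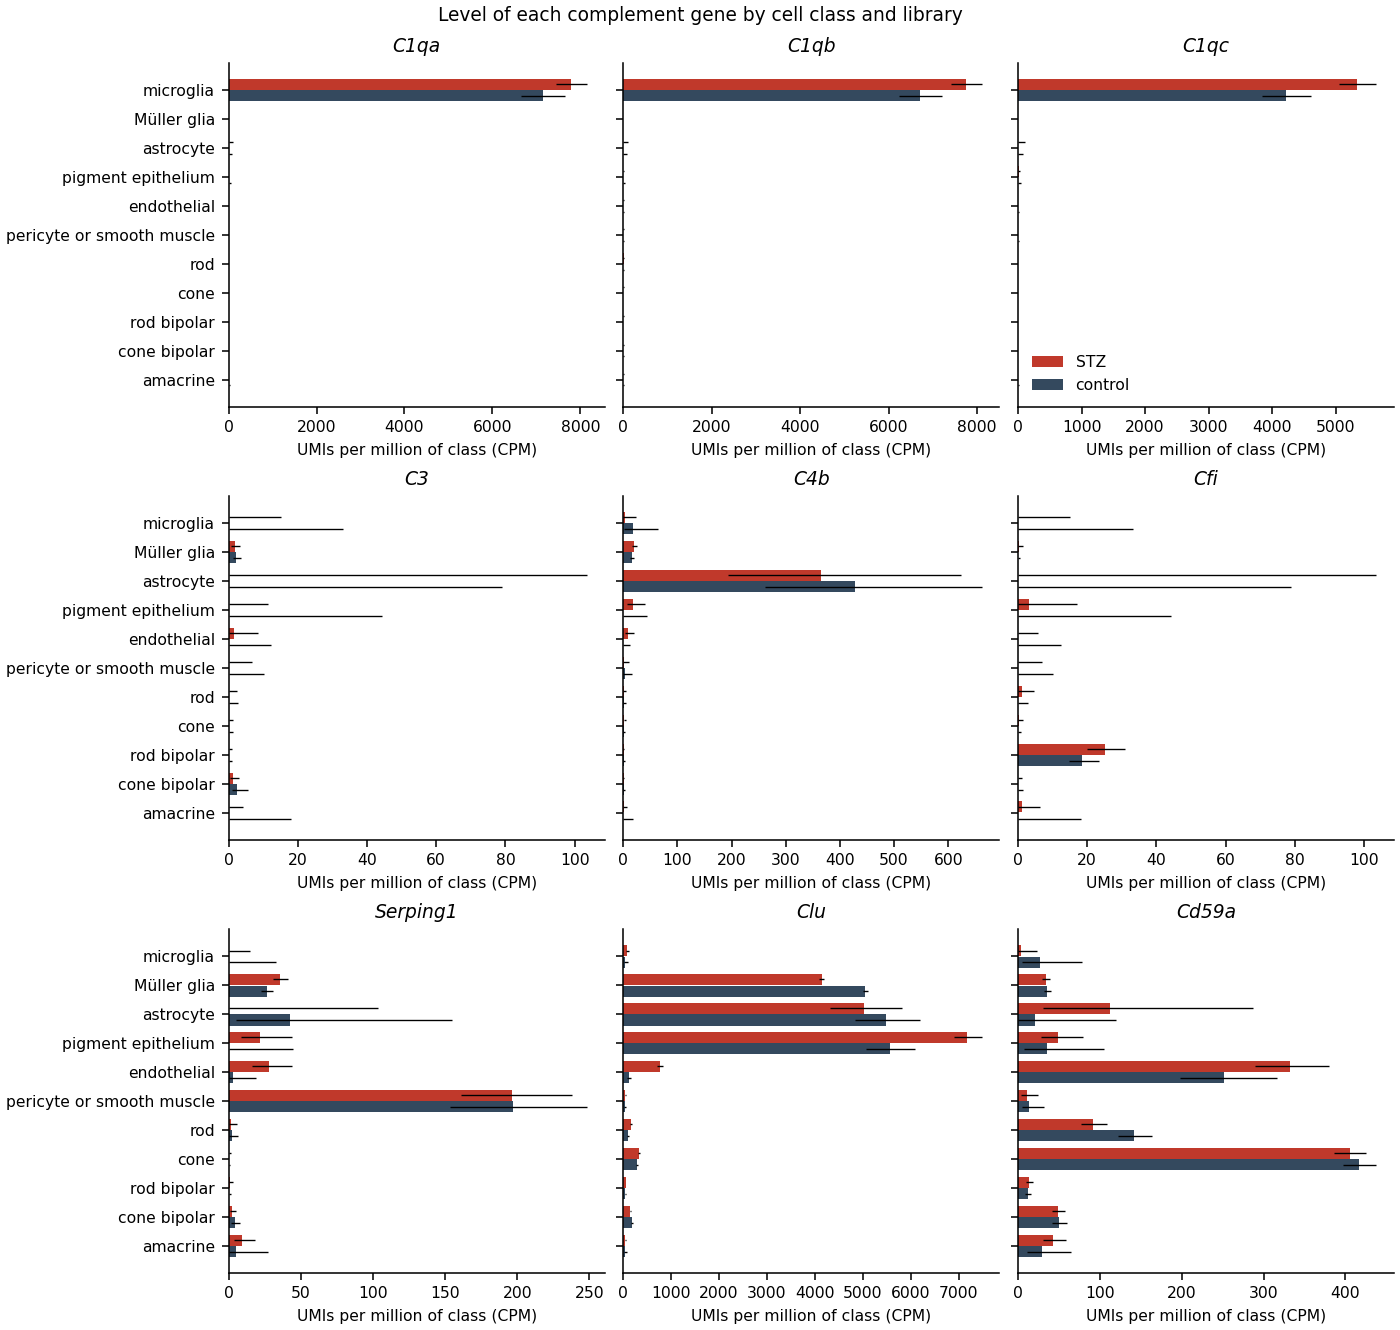
Level of the 9 complement genes by cell class (rows) in CPM on the horizontal axis, with STZ bars above control bars and 95% exact Poisson intervals as lines. C1q bars stand in microglia, where C1qa reached 7789 CPM in the STZ library and 7142 CPM in the control library, and Cfi bars stand in rod bipolar cells. The astrocyte bars rest on 7 cells in each library.

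Over the 8 compared classes, 19 values of the 9 genes were high enough to be measured, with at least 10 CPM over both libraries together and at least 20 UMIs. Of these, 3 differed by at least 1.5-fold, 2 higher and 1 lower in the STZ library. In Müller glia 0 of 4 measured complement genes passed that size, where 8.42% of all measured genes did. In rods 2 of 2 passed it, where 18.7% of genes did (9.27% higher and 9.44% lower in STZ). In endothelial cells 1 of 2 passed it, against 38.9% of genes (20.9% higher and 18.1% lower in STZ). None of the measured complement genes passed it in cones (0 of 2, where 8.37% of genes did), rod bipolar cells (0 of 3, 11.2%), cone bipolar cells (0 of 2, 11.3%), amacrine cells (0 of 2, 29.7%) or pericytes and smooth muscle (0 of 2, 23.7%). The count of 1 of 2 in endothelial cells is therefore not far from the background of that class.

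**Figure D2:**
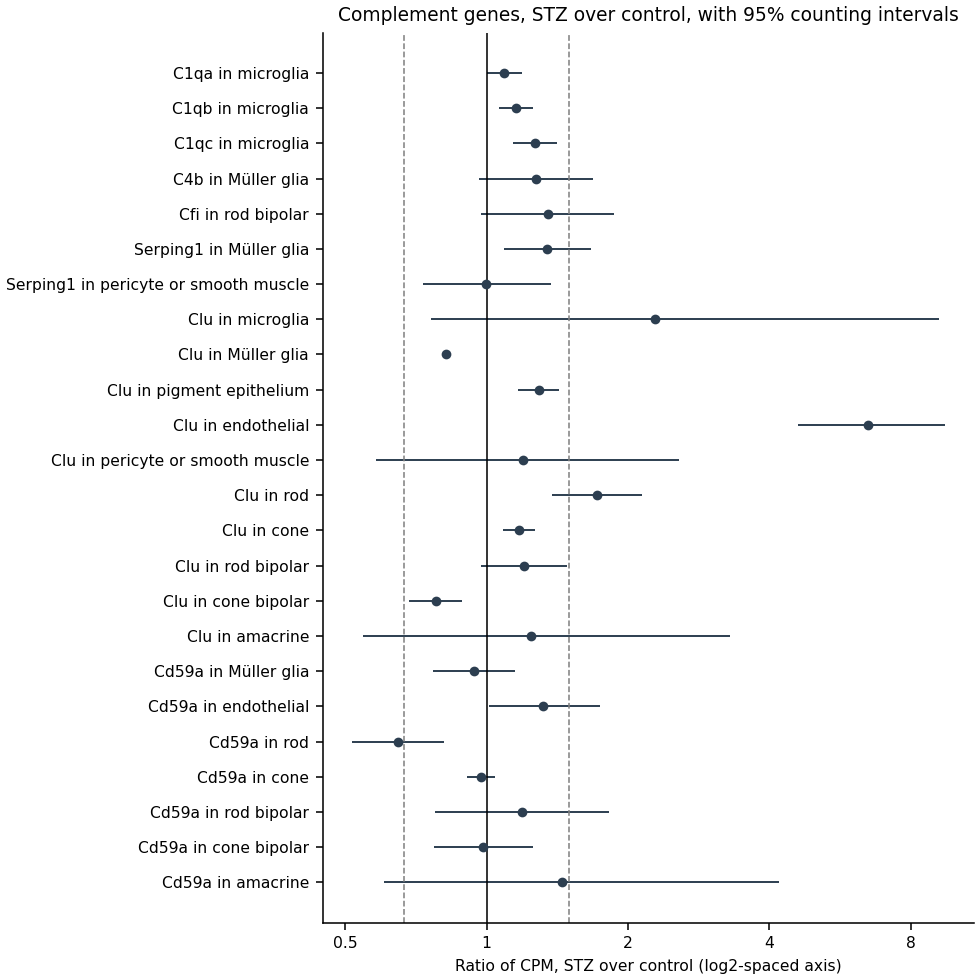
Ratio of CPM, STZ over control, for each complement gene in each class where it was measured, on a log2-spaced axis with 95% counting intervals. Dashed lines mark 1.5-fold in either direction. Clu in endothelial cells (6.50-fold) and in rods (1.71-fold) lie right of the upper line, and Cd59a in rods (0.65-fold) lies left of the lower line.

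C1qa, C1qb and C1qc encode the 3 chains of C1q, the recognition molecule of the classical pathway. The genes are neighbours on mouse chromosome 4 of build mm10, all on the minus strand, with C1qb at chr4:136880129-136886187, C1qc at chr4:136889804-136893065 and C1qa at chr4:136895917-136898803, each with 3 exons. Because these 3 genes shared a class, the RefSeq sequence before the start site was read where it could be. The 250 bases before the RefSeq start of C1qb (GRCm38.p6, chr4:136886201-136886450, minus strand) are printed with the letters GAGGAA, the core bound by the myeloid factor PU.1, in capitals. The RefSeq window of C1qc is not shown, since its start lies within the gene as GENCODE, the source of the positions given here, places it.
C1qb: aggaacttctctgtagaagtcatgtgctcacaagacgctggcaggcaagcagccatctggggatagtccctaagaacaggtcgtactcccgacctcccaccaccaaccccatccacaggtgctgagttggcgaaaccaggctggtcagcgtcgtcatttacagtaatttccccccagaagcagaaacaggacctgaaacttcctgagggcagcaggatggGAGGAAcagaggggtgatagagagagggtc
The C1qb window held that core 1 time, beginning 30 bases before the start. The same letters, on either strand, stood in 22.3% of 12383 promoter windows of this length, so their presence is no mark of C1qb. Of the other members, the Cd59a window held the core 1 time and the C3 window 0 times. None of these 3 windows held the STAT letters TTCNNNGAA, which 5.94% of all windows did.

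In microglia C1qa stood at 7789 CPM in the STZ library (1906 UMIs) and 7142 CPM in the control library (796 UMIs), a ratio of 1.09 (1.004 to 1.19). C1qb stood at 7745 CPM in STZ and 6711 CPM in control, a ratio of 1.15 (1.06 to 1.26). C1qc stood at 5337 CPM in STZ and 4217 CPM in control, a ratio of 1.27 (1.14 to 1.41). All 3 were thus slightly higher in the STZ library and none reached 1.5-fold, in a class where 35.9% of genes did. The median gene of microglia had a log2 ratio of -0.13, and relative to it the log2 ratios were 0.26 for C1qa, 0.34 for C1qb and 0.47 for C1qc. The sign depended on the setting: it was negative in 5 of 14 alternatives for C1qa, 3 for C1qb and 2 for C1qc. With cells thinned to 500 UMIs the log2 ratios were -0.29, 0.01 and -0.10, and with each cell weighted equally they were -0.19, -0.13 and 0.14. At a Leiden resolution of 0.5 they were -0.42, -0.34 and -0.21. That setting gave no separate neutrophil cluster, and 1 of its microglia clusters, of 123 STZ and 27 control cells, was led by the neutrophil genes S100a9 and S100a8. The C1q UMIs were the same as at the resolution used here, so the difference lay in the total UMIs of the class.

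The microglia formed 2 clusters that differed in depth and in leading markers. The shallow cluster was led by 9 of 12 microglia markers, without Cx3cr1, P2ry12 and Tmem119. Lyz2, listed here as a marker of monocytes or border macrophages, was among its top genes. The deep cluster was led by all 12, with Ccl4, Ccl3 and Tnf among its top genes. The part of depth in these marker differences was not tested. The shallow cluster held 74 STZ cells with a median of 805 UMIs and 26 control cells with 1111, and the deep cluster held 25 STZ cells with 6773 UMIs and 13 control cells with 6739. In the deep cluster the 3 genes together stood at 23142 CPM in STZ and 18336 CPM in control. In the shallow cluster the order was the other way, with 15164 CPM in STZ and 17428 CPM in control. The clusters thus moved in opposite directions between libraries for the sum, and also for C1qa and C1qb. C1qc did not reverse, with a ratio of 1.07 (0.85 to 1.35) in the shallow cluster and 1.32 (1.17 to 1.49) in the deep one. Among single STZ microglia the summed C1q level ranged to 32158 CPM with a median of 16332 CPM and 1 cell at 0, and among control microglia it ranged between 1733 and 27930 CPM with a median of 18437 CPM, so the ranges overlapped over most of their length.

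**Figure D3:**
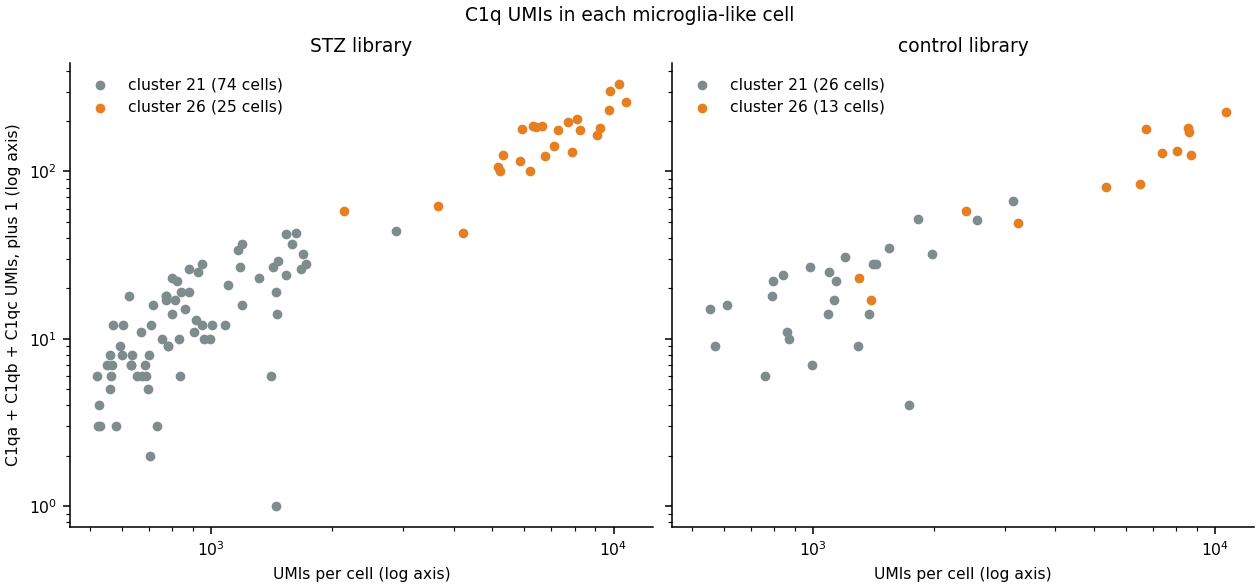
Summed C1qa, C1qb and C1qc UMIs, plus 1, against all UMIs of each microglia-like cell, both on log axes, with the STZ library on the left and the control library on the right. C1q UMIs increase with depth in both, and the deep cluster (25 STZ and 13 control cells) stands apart from the shallow one (74 and 26).

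At least 1 UMI of C1qb was found in 98.0% of STZ microglia and 100% of control microglia, at median depths of 946 and 1396 UMIs. In rods, which are not known to make C1q, the share was 0.492% in STZ and 0.319% in control, at median depths of 1184 and 1703.5 UMIs. With each cell thinned to 500 UMIs, the microglia shares were 89.9% in STZ and 94.9% in control and the rod shares 0.296% and 0.16%. All 3 genes were found together in 84 of 99 STZ microglia and 36 of 39 control microglia, and in every cell of the deep cluster.

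Microglia held 96.0% of C1qa UMIs in the STZ library and 97.5% in the control library, and their shares of C1qb (95.1% and 96.8%) and C1qc (96.3% and 97.5%) were alike. The rest was spread over many cells. Outside microglia 1.97% of 8133 STZ cells and 1.01% of 5059 control cells carried any C1q UMI, at a summed level of 9.72 CPM in STZ and 2.63 CPM in control. Of the 227 outside C1q UMIs in STZ, 82 lay in an unnamed shallow cluster of 1579 STZ cells and 4 control cells. Without that cluster the levels were 6.55 CPM (5.52 to 7.70) in STZ and 2.63 CPM (1.99 to 3.40) in control, in 1.62% and 1.01% of cells. In these outside cells C1qa, C1qb and C1qc made up 34.8%, 43.2% and 22.0% of C1q UMIs in STZ, and in the microglia 37.3%, 37.1% and 25.6%. In control the outside proportions were 35.1%, 43.9% and 21.1%, and the microglia proportions 39.5%, 37.1% and 23.3%. The proportions outside lay nearer to those of the shallow microglia cluster, where C1qb also led with 40.4% of C1q UMIs in STZ and 43.0% in control.

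Over the whole library C1qa stood at 84.1 CPM in STZ and 37.4 CPM in control, and microglia were 1.20% (0.978% to 1.46%) of kept STZ cells and 0.765% (0.545% to 1.04%) of kept control cells. In such whole-library sums more cells of a type and more RNA per cell cannot be told apart. The 2 pools were also filtered before deposit and differ in depth, so the share of microglia describes the captured cells.

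C4b encodes the mouse C4 protein, which C1s cleaves once C1q has bound. It lies on chromosome 17 (chr17:34728380-34743882, minus strand, 41 exons), beside the near-identical C4a, so its counts depend on how the authors' counting assigned shared reads. Its highest level was in the small astrocyte cluster, at 365 CPM (194 to 624, 13 UMIs) in STZ and 428 CPM (262 to 662, 20 UMIs) in control. Müller glia, with a far lower level but many more cells, held 64.4% of C4b UMIs in STZ and 73.6% in control. Their level was 20.6 CPM in STZ (103 UMIs) and 16.2 CPM in control (109 UMIs), and the ratio of 1.27 (0.96 to 1.68) was not distinguishable from 1 at this depth.

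C3 encodes the central protein of all complement pathways, whose cleavage product coats targets. It lies on chromosome 17 (chr17:57203970-57228136, minus strand, 41 exons). It was measured in no class. Microglia held 0 C3 UMIs in both libraries, which with 3 counts as the limit allows up to 12.3 CPM in STZ and 26.9 CPM in control. Müller glia held 9 C3 UMIs in STZ and 14 in control, and 12 of those 14 lay in 2 cells, with 7 and 5 UMIs each. In STZ the highest counts were 3 UMIs in 1 Müller glia cell and 3 in 1 cell of the neutrophil cluster. C3 was not confined to these. An unnamed cluster led by Grm6, Gng13 and Isl1 held 3 UMIs in STZ (3.91 CPM, 0.81 to 11.4) and 4 in control (5.93 CPM, 1.62 to 15.2). A cone bipolar cluster held 2 in STZ and 3 in control. The Müller glia cluster with most C3 UMIs stood at 2.69 CPM in STZ and 2.81 CPM in control.

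The Müller glia that carried C4b and C3 were also examined by 4 genes known to be raised in reactive glia, Gfap, Lcn2, A2m and Serpina3n. A UMI of at least 1 of these was found in 84 of 1171 STZ cells (7.17%, 5.76% to 8.80%) and 38 of 1267 control cells (3.00%, 2.13% to 4.09%). In STZ, C4b stood at 93.3 CPM (65.7 to 129) in the cells with such a UMI and 14.3 CPM (11.1 to 18.2) in the cells without, a ratio of 6.51 (4.23 to 9.87). In control it stood at 97.7 CPM (61.9 to 147) with and 13.2 CPM (10.6 to 16.4) without, a ratio of 7.38 (4.44 to 11.8). C4b was therefore several-fold higher in the cells with a reactive gene in both libraries, at levels whose intervals overlapped between STZ and control.

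C3 followed that split even more narrowly, with 8 of its 9 Müller UMIs in STZ and 13 of 14 in control in the cells with a reactive gene. Those UMIs lay in 5 STZ cells and 3 control cells. Serping1 stood at 129 CPM (95.7 to 169) with and 27.6 CPM (23.0 to 32.8) without a reactive gene in STZ, and at 55.2 CPM (29.4 to 94.4) with and 25.4 CPM (21.7 to 29.6) without in control. Clu differed little by that split, with 4997 CPM with and 4067 CPM without in STZ, and 5198 CPM with and 5047 CPM without in control. Taken by single genes, C4b in STZ was 162 CPM in cells with a Gfap UMI, 178 CPM with Lcn2, 81.5 CPM with A2m and 180 CPM (113 to 272) with Serpina3n, against 16.7, 16.1, 17.6 and 16.6 CPM in the cells without that gene.

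Other measures stand beside that split. The cells with a reactive gene were somewhat deeper, with medians of 5510 UMIs against 4708 in STZ and 6398 against 5709 in control. The summed level of 4 astrocyte markers other than Gfap was 111 CPM with and 103 CPM without a reactive gene in STZ, and 55.2 CPM with and 86.5 CPM without in control. The 9 Müller glia markers summed to 16472 CPM with and 21538 CPM without in STZ, and 18648 CPM with and 20971 CPM without in control. The part of these in the C4b difference was not tested.

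**Figure D4:**
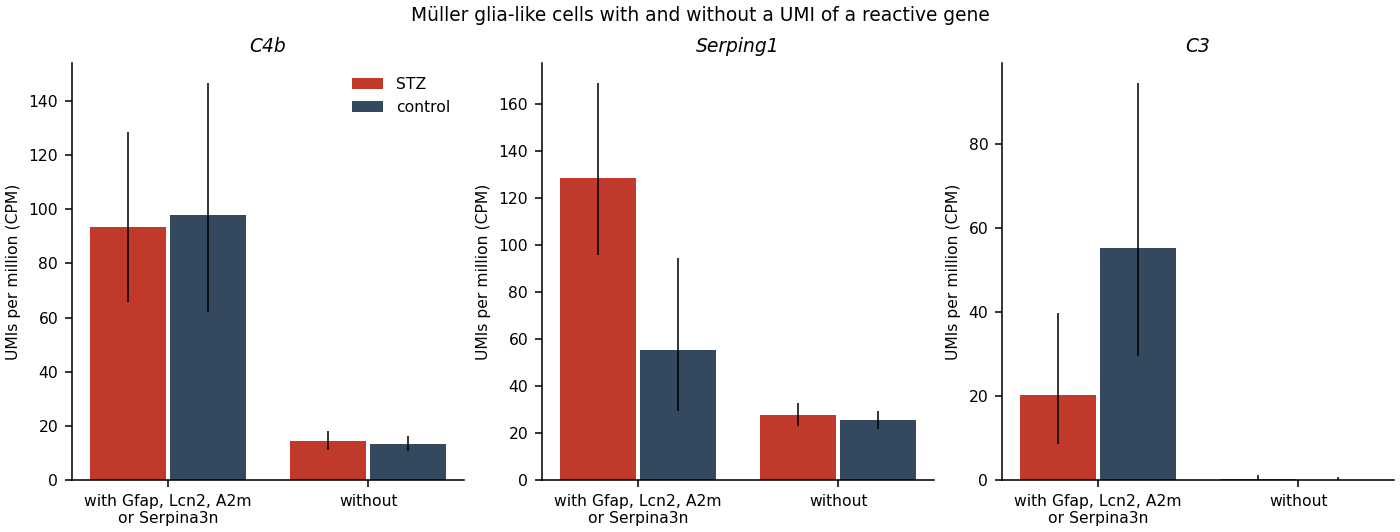
C4b, Serping1 and C3 in Müller glia-like cells with a UMI of Gfap, Lcn2, A2m or Serpina3n (84 STZ and 38 control cells) and without (1087 and 1229), in CPM with 95% exact Poisson intervals, STZ left of control. C4b stands at 93.3 CPM in STZ and 97.7 CPM in control with such a UMI, and at 14.3 and 13.2 CPM without.

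Cfi encodes factor I, a serine protease that inactivates C3b and C4b in the presence of a cofactor. It lies on chromosome 3 (chr3:129835884-129875332, plus strand, 14 exons). Rod bipolar cells, the interneurons that take up rod signals, held 84 of 96 kept Cfi UMIs in STZ and 74 of 74 in control. The level there was 25.1 CPM (20.01 to 31.1) in STZ and 18.6 CPM (14.6 to 23.4) in control, a ratio of 1.35 (0.97 to 1.87), which is not distinguishable from 1 at this depth. In cone bipolar cells the count was 0 in both libraries, which allows up to 0.905 CPM in STZ and 1.27 CPM in control. Rods held 2 UMIs in STZ and 0 in control, and microglia held 0 in both. A UMI of Cfi was found in 9.25% of STZ and 7.03% of control rod bipolar cells at median depths of 4293 and 4611 UMIs, against 0.197% of STZ rods and 0% of control rods. Thinned to 500 UMIs the rod bipolar shares were 0.986% and 0.794%, close to the limit of what such shallow cells can show.

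Serping1 encodes the C1 inhibitor, which blocks the proteases C1r and C1s. It lies on chromosome 2 (chr2:84765387-84775444, minus strand, 8 exons). Pericytes and smooth muscle had the highest level, 197 CPM (161 to 238, 105 UMIs) in STZ and 197 CPM (154 to 248, 71 UMIs) in control, with a ratio of 0.999 (0.73 to 1.37). The 2 pericyte or smooth muscle clusters were alike in this, at 214 CPM in STZ and 223 CPM in control in the one and 177 and 167 CPM in the other. In Müller glia Serping1 stood at 35.6 CPM (30.6 to 41.2) in STZ and 26.4 CPM (22.7 to 30.6) in control, with 178 UMIs in each and a ratio of 1.35 (1.09 to 1.67). Those intervals touch. Among Müller glia without a reactive gene UMI the levels were 27.6 CPM in STZ and 25.4 CPM in control, with overlapping intervals, and with each cell weighted equally the log2 ratio over the class was -0.10 against 0.43 from the sums. With estimated free RNA removed it was 0.62, past 1.5-fold. In endothelial cells Serping1 had 18 UMIs in STZ and 1 in control, too few to count among the measured values. The ratio was 8.25 with an interval of 1.30 to 344. In the same cells the 9 Müller glia markers summed to 2653 CPM in STZ and 887 CPM in control. Free RNA was estimated from rod markers, with the make-up of all kept cells, at 61.7% of endothelial UMIs in STZ and 19.4% in control. These shares are rough and can be too high, as is shown for Clu below. The part of RNA from other cells in these Serping1 counts was not tested.

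Clu encodes clusterin, a secreted chaperone that also binds the terminal complement complex and keeps it out of membranes. It lies on chromosome 14 (chr14:65968483-65981547, plus strand, 9 exons) and was by far the most counted of the 9, with 27847 kept UMIs in STZ and 36997 in control. Müller glia held 74.3% of these in STZ and 91.9% in control. Their level was 4141 CPM (4084 to 4197) in STZ and 5053 CPM (4999 to 5107) in control, a ratio of 0.82 (0.81 to 0.83). Clu was lower in STZ in each of the 4 Müller glia clusters, with ratios of 0.82, 0.88, 0.72 and 0.80. It was also lower in each range of depth, at 2796 CPM in STZ and 4225 CPM in control for cells under 1000 UMIs, 3644 and 5751 CPM between 1000 and 2000 UMIs, and 4204 and 5045 CPM from 2000 UMIs. The size stayed short of 1.5-fold over the class. Rod markers, which measure rod RNA outside rods, summed to 2006 CPM in STZ and 859 CPM in control Müller glia, and with free RNA estimated and taken off the log2 ratio of Clu was -0.05 in place of -0.29. That estimate gives free RNA the make-up of all kept cells, most of whose Clu UMIs lay in Müller glia, so this value is rough.

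Pigment epithelium, the layer that supports photoreceptors, went the other way. Clu stood there at 7179 CPM (6891 to 7475) in STZ and 5562 CPM (5067 to 6093) in control, a ratio of 1.29 (1.17 to 1.43), in a class where 0 of 1 measured complement genes and 45.4% of all measured genes passed 1.5-fold. In cells from 2000 UMIs it was 8398 CPM in 50 STZ cells and 6245 CPM in 15 control cells, and between 1000 and 2000 UMIs it was 7103 CPM in 45 STZ cells and 4886 CPM in 16 control cells. Under 1000 UMIs the levels were 4306 CPM in STZ and 3702 CPM in control, with overlapping intervals. After removal of estimated free RNA its log2 ratio was 1.01 in place of 0.37, with a stricter cell filter 0.62 and with a marker gate 0.68, each past 1.5-fold. The astrocyte cluster had 5023 CPM (4314 to 5816) in STZ and 5483 CPM (4832 to 6198) in control. In control the intervals of the 3 classes overlapped, and in STZ the classes came in the order pigment epithelium, astrocytes, Müller glia, each apart from the next.

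In endothelial cells Clu stood at 764 CPM (698 to 835, 496 UMIs) in STZ and 118 CPM (81.9 to 164, 35 UMIs) in control, a ratio of 6.50 (4.61 to 9.44). A Clu UMI was found in 48.8% of 404 STZ cells and 17.2% of 87 control cells, at median depths of 949.5 and 3165 UMIs, and after thinning to 500 UMIs in 35.6% and 9.20%. In rod bipolar cells, among the classes lowest in Clu, the shares were 19.7% of STZ and 17.7% of control cells at median depths of 4293 and 4611 UMIs, and 2.84% and 3.06% after thinning. The level in STZ depended on depth. Cells under 1000 UMIs had 1379.7 CPM in STZ and 210.3 CPM in control, cells between 1000 and 2000 UMIs had 1488 CPM in STZ and 244 CPM in control, and cells from 2000 UMIs had 192 CPM (149 to 244) in 80 STZ cells and 107 CPM (71.5 to 153) in 62 control cells. The intervals of the deep cells overlap. The log2 ratio over the class, 2.70, was 1.35 with a stricter cell filter, 1.37 with a marker gate and, in an alternative chosen after seeing the data, 1.88 with at least 1500 UMIs per cell.

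Markers of other cells moved with that result. The 9 Müller glia markers summed to 2653 CPM in STZ endothelial cells and 887 CPM in control endothelial cells, 9 and 7 of them detected. The 8 rod markers summed to 3709 CPM in STZ and 1032 CPM in control, and 5 erythrocyte genes to 6238 CPM in STZ and 3.36 CPM in control. The 9 endothelial markers summed to 12779 CPM in STZ and 19396 CPM in control. Among endothelial cells from 2000 UMIs the Müller glia markers stood at 1166 CPM in STZ and 861 CPM in control. The share of free RNA, estimated from rod markers, was 61.7% of endothelial UMIs in STZ and 19.4% in control. With it taken off no Clu UMI was left in control, so no ratio could be given. The estimate assigned more Clu to free RNA than was counted in control endothelial cells, so it is too high for Clu there. Whether RNA of other cells takes part in the endothelial Clu level was not tested further.

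**Figure D5:**
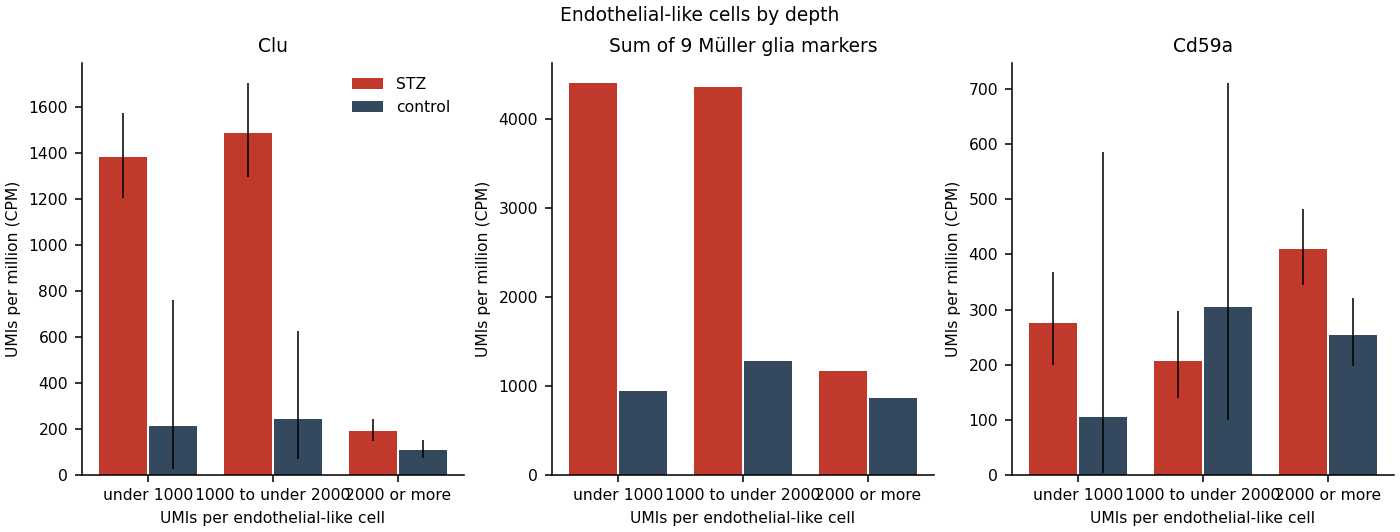
Clu, the sum of 9 Müller glia markers, and Cd59a in endothelial-like cells by depth (under 1000, 1000 to under 2000, and 2000 or more UMIs per cell), in CPM, STZ left of control, with 95% exact Poisson intervals for the 2 genes. Clu and the Müller glia markers are high together in the STZ cells under 2000 UMIs, and Clu stands at 192 CPM in STZ and 107 CPM in control in the deeper cells.

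Among neurons Clu was highest in cones, at 335 CPM (317 to 353) in STZ and 286 CPM (269 to 303) in control, a ratio of 1.17 (1.08 to 1.27). In rods it stood at 165 CPM (145 to 186) in STZ and 96.0 CPM (80.1 to 114) in control, a ratio of 1.71 (1.38 to 2.14). That rod difference was largest in rods from 2000 UMIs, at 223 CPM in STZ and 96.7 CPM in control, and between 1000 and 2000 UMIs the levels were 95.4 and 88.8 CPM. Under 1000 UMIs they were 165 CPM in STZ and 105 CPM in control, with overlapping intervals. The 2 rod clusters had ratios of 1.69 (1.28 to 2.25) and 1.30 (0.87 to 1.92). Müller glia markers in rods summed to 958 CPM in STZ and 489 CPM in control, and to 1508 CPM in STZ and 512 CPM in control in the rods from 2000 UMIs. With called doublets kept, the log2 ratio of Clu in rods was 0.21 in place of 0.78, and with no filter on cells it was 0.13, so the call ended in both settings. The part of Müller glia RNA in the rod level was not tested.

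Cone bipolar cells showed the opposite order for Clu, with 145 CPM (133 to 159) in STZ and 187 CPM (170 to 205) in control, a ratio of 0.78 (0.68 to 0.89). Of the 6 cone bipolar clusters, the one with most cells had a ratio of 1.17 (0.91 to 1.51). The other 5 had ratios under 1, and the interval excluded 1 in 1 of them, at 0.76 (0.63 to 0.91). That cluster had 244 CPM in STZ and 322 CPM in control, and held 268 of 986 STZ and 229 of 650 control cells. Another had 55.4 CPM in STZ and 69.4 CPM in control, and held 163 STZ and 58 control cells. The mix of clusters thus differed between libraries, and its part in the class ratio was not tested. The class also leaves out 2 unnamed clusters led by the bipolar genes Grm6, Gng13 and Isl1, with Vsx1 among their top genes. Their Clu ratios were 0.99 (0.78 to 1.25) with 291 STZ and 307 control cells, and 0.72 (0.46 to 1.11) with 176 and 136 cells. Rod bipolar cells had 55.0 CPM in STZ and 45.8 CPM in control, a ratio of 1.20 (0.97 to 1.48). In microglia Clu had 20 UMIs in STZ and 4 in control, or 81.7 CPM (49.9 to 126) and 35.9 CPM (9.78 to 91.9), and the ratio of 2.28 (0.76 to 9.16) counts as 1 of 4 measured members higher there, where 12.8% of genes were higher and 23.1% lower. In amacrine cells and in pericytes or smooth muscle the ratios were 1.24 (0.55 to 3.30) and 1.20 (0.58 to 2.57).

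Cd59a encodes CD59, a membrane protein that prevents assembly of the terminal pore. It lies on chromosome 2 (chr2:104095801-104115354, plus strand, 5 exons), and its counts depend on how any reads shared with the related gene Cd59b were assigned. Cones held 63.8% of its kept UMIs in STZ and 70.1% in control. The cone level was 405 CPM (386 to 425) in STZ and 417 CPM (397 to 438) in control, a ratio of 0.97 (0.91 to 1.04), so counting error alone leaves ratios between 0.91 and 1.04. The 2 cone clusters had ratios of 0.96 and 0.97. A Cd59a UMI was found in 67.5% of STZ cones and 73.3% of control cones at median depths of 4698 and 5514 UMIs, and after thinning in 15.5% and 15.6%, against 5.06% and 5.10% of rod bipolar cells (0.617% and 0.34% after thinning).

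Rods had less Cd59a than cones and differed between libraries. The level was 91.8 CPM (77.2 to 108, 140 UMIs) in STZ and 141 CPM (122 to 163, 187 UMIs) in control, a ratio of 0.65 (0.52 to 0.81). Both rod clusters were lower in STZ, with ratios of 0.72 (0.53 to 0.97) and 0.55 (0.38 to 0.80). Under 1000 UMIs the levels were 96.5 CPM (64.1 to 139, 28 UMIs) in STZ and 90.1 CPM (46.5 to 157, 12 UMIs) in control. Between 1000 and 2000 UMIs they were 88.3 CPM (65.6 to 116) and 161 CPM (115 to 220), and from 2000 UMIs 92.7 CPM (71.0 to 119) and 143 CPM (120 to 170). The level was thus lower in STZ in both deeper ranges, with intervals apart only from 2000 UMIs. Under 1000 UMIs the counts are too few to tell whether it differed. Cone markers in rods summed to 1055 CPM in STZ and 705 CPM in control, and their part in the rod level was not tested. The 1.5-fold call ended in 3 of 12 settings, at log2 ratios of -0.57 with no filter on cells, -0.55 with each cell weighted equally and -0.46 with a marker gate, in place of -0.62.

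In endothelial cells, which are exposed to complement in blood, Cd59a stood at 333 CPM (290 to 380) in STZ and 252 CPM (198 to 316) in control, a ratio of 1.32 (1.01 to 1.74). In the cells from 2000 UMIs it was 410 CPM (345 to 483) in STZ and 254 CPM (198 to 321) in control, intervals that do not overlap. Unlike Clu it was not high in the shallow STZ cells, at 275 CPM under 1000 UMIs and 207 CPM between 1000 and 2000 UMIs. The log2 ratio over the class was 0.40 and passed 1.5-fold in 5 of 13 settings: 1.07 with estimated free RNA removed, 0.64 with thinning, 0.62 with a marker gate, 0.61 with a stricter cell filter and 0.60 with at least 1500 UMIs per cell, the last added after seeing the data. It was lowest with each cell weighted equally, at 0.19. Cone bipolar cells (49.4 CPM in STZ and 50.3 CPM in control), Müller glia (33.8 and 36.0 CPM), amacrine cells (42.8 and 29.6 CPM) and rod bipolar cells (14.0 and 11.8 CPM) had intervals of the ratio that include 1.

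The rest of the pathway was read from a list of 50 other complement genes, of which 26 were in the table. Over the 8 compared classes, 37 of their values were measured, 6 at least 1.5-fold higher and 4 at least 1.5-fold lower in STZ. Endothelial cells gave 3 higher and 2 lower of 5, where 38.9% of all genes passed. Pericytes and smooth muscle gave 1 higher and 1 lower of 7 (23.7%), and amacrine cells 1 lower of 5 (29.7%). Cone bipolar cells gave 1 higher of 6 (11.3%) and Müller glia 1 higher of 4 (8.42%). None passed in rods (0 of 2, 18.7%), cones (0 of 4, 8.37%) or rod bipolar cells (0 of 4, 11.2%). Of these 26 genes, 14 had at least 100 kept UMIs. Among early components, C1s1, the protease that cleaves C4, was highest in pericytes and smooth muscle, at 150 CPM (119 to 186) in STZ and 263 CPM (213 to 322) in control, a ratio of 0.57 (0.42 to 0.77). Colec12, a collectin of the lectin family, was also highest there, at 215 CPM in STZ and 233 CPM in control, a ratio of 0.92 (0.69 to 1.24).

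Among receptors, microglia carried C3ar1, which binds the C3a fragment, at 172 CPM (42 UMIs) in STZ and 260 CPM (29 UMIs) in control, a ratio of 0.66 (0.40 to 1.10). Itgam and Itgb2, the chains of complement receptor 3, stood at 184 and 217 CPM in STZ microglia and 233 and 206 CPM in control microglia, with intervals of the ratio that include 1. C5ar1, the C5a receptor, stood at 106 CPM in STZ and 108 CPM in control. Cd93, a receptor first described as binding C1q, was highest in endothelial cells, at 125 CPM (99.1 to 155) in STZ and 437 CPM (365 to 519) in control, a ratio of 0.29 (0.21 to 0.38). In the same cells the 9 endothelial markers were also lower, at 12779 CPM in STZ and 19396 CPM in control, 18.1% of genes were lower by at least 1.5-fold, and estimated free RNA made up 61.7% of UMIs in STZ and 19.4% in control. Their part in the Cd93 ratio was not tested.

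Among regulators, Vtn, encoding vitronectin, which like clusterin binds the terminal complex, was highest in pericytes and smooth muscle, at 6072 CPM in STZ and 6737 CPM in control, a ratio of 0.90 (0.85 to 0.95). Rods had 1249 CPM in STZ and 1652 CPM in control, a ratio of 0.76 (0.71 to 0.80). Müller glia had 51.6 CPM in STZ and 23.5 CPM in control, a ratio of 2.20 (1.80 to 2.70), and endothelial cells 533 CPM in STZ and 181 CPM in control, a ratio of 2.94 (2.20 to 3.99). Rod markers stood at 2006 CPM in STZ and 859 CPM in control Müller glia, and at 3709 and 1032 CPM in endothelial cells, and their part in these Vtn levels was not tested. Csmd1, a membrane regulator of neurons, stood at 22.9 CPM in STZ and 10.6 CPM in control cone bipolar cells (2.17, 1.37 to 3.56), and Csmd3, of that family, at 26.6 CPM in STZ and 118 CPM in control amacrine cells (0.23, 0.12 to 0.42).

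The patterns over classes were last set beside those of all other genes, by Pearson's r of log2(CPM + 10) over 21 points, the 11 classes in 1 or both libraries. The points share libraries and free RNA, so r is a description. C1qa, C1qb and C1qc followed each other (r of 0.995 to 0.998) and were closest to Trem2, at 0.998, 0.998 and 0.997, with Aif1, Gpr34, Ccl12 and Siglech next. Cfi was closest to Gm35217 (0.99), Siah3 (0.97) and Gm30725 (0.96). Serping1 was closest to Ajuba (0.97), Ltbp1 (0.96) and Pdgfrb (0.96), the last a pericyte marker. Clu was closest to Sdsl (0.96), Slc27a1 (0.95) and Rrh (0.95). C4b (Cryzl2, 0.90) and Cd59a (Podxl, 0.86) had less close partners. C1qa had an r of 0.31 with C4b, -0.27 with Clu and -0.35 with Cd59a.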

How the data were processed

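Single-cell RNA was measured in 1 STZ and 1 control library (10x Chromium 3' version 3, 1000 cells per µl loaded, 3 pooled retinas each). The authors deposited raw UMI counts, 17087 genes by 19562 cells, which the submitters' processing notes tie to Cell Ranger 3.0.1, Seurat 3.0 and build mm10. The settings and whether counting used strand are not given in the sources used here. The deposited table held no cell over 2999 genes and none under 499 UMIs, and 21 barcodes occurred in both libraries. Its totals were 33178623 UMIs in STZ and 27279124 in control.

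Cells under 200 genes, or above 20% of counts on the 13 mitochondrial genome genes, were dropped (28.5% of STZ and 25.7% of control cells). Scrublet in scanpy 1.11.5 scored doublets. Its automatic calls were 0 in STZ and 31 in control, so the top scores were removed in both at 0.8% per 1000 cells (628 STZ and 227 control cells). Clustering used 2000 variable genes without the complement genes, counts scaled to 10000 per cell, 30 principal components, 15 neighbours and Leiden resolution 1.0 (leidenalg 0.10.2). A marker led a cluster at 10% of its cells, 1.5-fold over other cells and 25% of its highest cluster, and a class name needed 3 leading markers.

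Counts were summed per class and library. Intervals are exact Poisson for levels, Clopper-Pearson for shares and conditional binomial for ratios, at 95%, and take UMIs as independent. The calculation of ratios and calls was tested on simulated data. No test between groups was made. The members and all lists were chosen with earlier results of these data known. Other complement genes were named from those with at least 100 kept UMIs, up to 4 a class by ratio and by highest class. The receptors C3ar1, C5ar1, Itgam and Itgb2 have fewer and were added after their values were seen. A gene that this rule selects is not reported here. The nearest genes are the 3 of highest r among genes with at least 200 UMIs, and 1 gene each is given for C4b and Cd59a. Gene positions are from GENCODE M21 and promoters from RefSeq, which held 4 of the 9 genes and whose start sites can differ from GENCODE.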

Additional observations from a re-analysis of the deposited data

Results flagged for a closer look

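Clu differed in direction between classes. Its log2 ratio, STZ over control, was 2.70 in endothelial cells and -0.36 in cone bipolar cells, a difference of 3.06, and both intervals exclude no change. The endothelial value was 1.35 with a stricter cell filter and 1.37 with a marker gate, and in endothelial cells from 2000 UMIs the Clu intervals overlapped, at 192 CPM in STZ and 107 CPM in control. In cone bipolar cells 1 of 6 clusters had an interval below 1, and the cluster with most cells stood at 1.17 (0.91 to 1.51). The mix of these clusters also differed between libraries. The difference of 3.06 was not tested, since each group is 1 library. Beside it, Müller glia markers in endothelial cells summed to 2653 CPM in STZ and 887 CPM in control.

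Cd59a was higher in STZ in endothelial cells (log2 ratio 0.40) and lower in rods (-0.62), a difference of 1.02 that was not tested either. In cells from 2000 UMIs the levels were 410 CPM in STZ and 254 CPM in control in endothelial cells, and 92.7 CPM in STZ and 143 CPM in control in rods.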

How the results depend on the processing

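Over the 8 classes 2 of the 19 measured values were at least 1.5-fold higher in STZ, both of Clu, and 1 was lower, of Cd59a. Higher ones numbered 1 with no filter on cells, 1 with doublets kept, 1 at a fold of 2, 6 with a stricter cell filter, 5 with cells thinned to 500 UMIs, 5 with classes from a marker gate and 4 in cells with at least 1500 UMIs, the last chosen after seeing the data. Lower ones numbered 0 with no filter, at a fold of 2, with each cell weighted equally, with the marker gate and with free RNA taken off, and 4 with thinning. The share of all genes past the fold was calculated for the main setting alone, so these counts have no such share beside them. The cause of the changes was not tested. Taking off free RNA gave no value for rods and cones, which express the rod markers used, nor where no UMI was left in 1 library. Its estimate can be too high, as for Clu in control endothelial cells, so all ratios with it taken off are rough. Of 303 alternative values of 24 ratios, 31 had the opposite sign, none of them of a ratio past 1.5-fold in the main values. Clu in endothelial cells stayed at a log2 ratio of 1.35 or more in all 12 settings run, Clu in Müller glia between -0.36 and -0.05 in 13, and Cd59a in rods between -0.70 and -0.46 in 12. Depth limits C3, C4b and Cfi most. No paired analysis was possible because each group is 1 library and no test was made.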

Other observations

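Some complement UMIs lay in cells outside the named and compared classes. Among these cells were unnamed clusters led by bipolar genes, of 291 STZ and 307 control cells and of 176 and 136 cells. An unnamed cluster of 1579 STZ cells and 4 control cells, with a median of 679 UMIs in STZ and rod genes among its leading genes, held Clu at 1235 CPM in STZ, C1qb at 24.2 CPM and Cd59a at 96.8 CPM. A cluster named by neutrophil markers, with 49 STZ cells and 1 control cell, held Clu at 365 CPM (263 to 493) in STZ. It held Cd59a at 95.6 CPM and 0 C1qa UMIs in STZ, with too few control cells for a level. Its STZ cells also held 9 of 9 endothelial markers, at 3338 CPM, and rod markers at 7093 CPM, beside neutrophil markers at 15324 CPM. With called doublets kept, the cluster led by S100a9 and S100a8 was unnamed, with 7 leading endothelial markers. The part of other cells in its Clu and Cd59a levels was not tested.

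The cells removed by the filters held part of the UMIs. Cfi had 96 of 170 UMIs in kept cells in STZ and 74 of 108 in control, and C4b had 160 of 211 in STZ and 148 of 165 in control. Cells with at least 3 microglia markers numbered 151 in STZ and 45 in control, of which 116 and 41 were kept.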
